A study of Homo sapiens with 120 samples.

Results

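A set of 10 transporter genes whose products bring amino acids into the cell or exchange them across its surface were followed in TK6, a human B lymphoblastoid cell line that is widely used to test chemicals for damage to chromosomes. The members are the 10 named genes SLC7A11, SLC3A2, SLC7A5, SLC43A1, SLC7A1, SLC1A4, SLC1A5, SLC38A1, SLC38A2 and SLC6A9, out of 19775 genes with a probe set of a single gene symbol. Each gene was read from whichever of its probe sets was brightest on average over all 120 arrays. Of the 10 members, 9 were bright enough to be tested, as were 14023 genes in all, and SLC6A9 was not.

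Cultures received formaldehyde (FA) at 50, 100 or 200 µM, methyl methanesulfonate (MMS) at 80, 160 or 320 µM, ethyl methanesulfonate (EMS) at 1, 2 or 4 mM, colcemid (COL) or vincristine (VCR), or were left untreated, for 4 h or 24 h. FA is a reactive aldehyde, MMS and EMS add a methyl or an ethyl group to DNA, and COL and VCR act on the spindle by binding tubulin. COL and VCR doses carry the labels 1, 2 and 4 µg/ml, but the titles write them with leading zeros and do not settle whether a decimal point was dropped, so each is given as a lowest, a middle and a highest dose. Every chemical had its own untreated cultures at 4 h and at 24 h, and each of the 40 groups had 3 arrays, numbered as experiments 1 to 3. All groups are the same cell line and differ in the labels by chemical, dose and time.

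Amino acid transporters work in a few chemical systems. SLC7A11 takes up cystine in exchange for glutamate and so feeds the synthesis of glutathione, and SLC7A5 exchanges glutamine for leucine and other large neutral amino acids, which activate the growth kinase mTORC1. Both are light chains that reach the surface only when joined to the heavy chain SLC3A2, also known as CD98. Many of these genes are targets of ATF4, a transcription factor whose protein is made when amino acids run short or proteins misfold, and SLC7A11 is also a target of NRF2, the factor that answers oxidants and other electrophiles.

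Short stretches of promoter are shown first, because ATF4 and NRF2 are the factors usually named for these genes. The RefSeq promoter table (build GRCh38.p14, 250 bases before to 50 bases after each start) held 9 of the 10 members, and SLC7A11 was not among them. A single start was searched for each gene. For SLC3A2 (window 62881449 to 62881748) and SLC38A1 (46266467 to 46266766) it lies inside the gene's span (62856109 to 62888860 and 46183063 to 46269043), not at its end. The C/EBP-ATF element TGATGNAAN, searched on both strands, was in 3.67% of 27305 promoters and matched in SLC7A1, SLC38A1 and SLC3A2. These are given 5′ to 3′ on the gene's strand, with the matched bases in capitals, from chr13:29595663-29595691 (minus strand), chr12:46266502-46266530 (minus strand) and chr11:62881725-62881748 (plus strand, where the match lies on the opposite strand).
SLC7A1: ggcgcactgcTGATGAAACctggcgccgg
SLC38A1: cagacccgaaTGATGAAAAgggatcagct
SLC3A2: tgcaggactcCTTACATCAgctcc

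The core of the antioxidant response element, TGACNNNGC on both strands, was in 13.6% of all promoters and matched in SLC3A2 (chr11:62881652-62881680, plus strand), SLC7A5 (chr16:87869491-87869519, minus strand) and SLC7A1 (chr13:29595755-29595783, minus strand).
SLC3A2: cgagggtgggTGACTCAGCgtcctccttc
SLC7A5: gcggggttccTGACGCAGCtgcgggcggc
SLC7A1: tgcccggcggTGACGCGGCcgagcgggcc

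The E-box CACGTG, which reads the same on both strands and is bound by MYC and related factors, was in 7.43% of all promoters and matched in SLC7A5 (chr16:87869622-87869647, minus strand) and SLC43A1 (chr11:57515799-57515824, minus strand).
SLC7A5: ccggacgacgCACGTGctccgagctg
SLC43A1: gcgggcgagtCACGTGcgcgtgaaac
SLC1A4, SLC1A5, SLC38A2 and SLC6A9 had no match to any of the 3 motifs in this window. A match describes letters and was not tested as a binding site.

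Signals are deposited log2 values, and each difference is the treated minus the untreated mean, with the standard error (SE) that a limma fit gave it, a fit of each chemical's 24 arrays. A gene is called where the two-sided limma p, adjusted by Benjamini and Hochberg over the 14023 genes, is under 0.05. There were 3 arrays in a group, and this small number limits the precision. The labels do not say that the experiments were separate cultures, so p-values measure the spread between these arrays. An array reads a whole culture, so a change in every cell and a larger change in some of the cells cannot be told apart. Array medians lay between 6.133 and 6.243, and 7 of 7 B cell markers with a probe set were above the limit for testing on all arrays. Of the markers of other lineages, 2 of 8 for T and NK cells, 2 of 8 for monocytes and granulocytes, 3 of 8 for epithelium and fibroblasts and 2 of 4 for red blood cells were also above it on all arrays. One untreated FA array, experiment 3 at 4 h, stood apart with the lowest mean correlation to its own group (0.994), and results that change without it are given both ways.

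In untreated cultures SLC7A11, on chromosome 4 (138164097 to 138242349), was the member whose level differed most between the times. Over the 15 untreated arrays at 24 h its log2 signal had a lowest value of 7.95, a median of 8.43 and a highest value of 9.03, against 9.33, 9.56 and 9.83 at 4 h. The ranges did not overlap. The difference, averaged over the 5 sets, was -1.08 (SE 0.0447, adjusted p = 1.83e-16), or 2.12-fold lower at 24 h. The 24 h level also differed between sets, with means of 8.97 ± 0.0655 in the MMS set and 8.78 ± 0.119 in the EMS set (SD, n = 3) and between 8.20 and 8.26 in the FA, VCR and COL sets. In all, 6 of 9 members were called between 24 h and 4 h untreated cultures, against 53.6% of all tested genes, and all 6 were lower at 24 h, against 27% of tested genes.

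SLC3A2 was lower at 24 h by a log2 difference of -0.33 (SE 0.0319, adjusted p = 2.06e-09), SLC38A1 by -0.16, SLC7A1 by -0.12, SLC1A5 by -0.12 and SLC7A5 by -0.08. SLC1A4 (0.02), SLC43A1 (0.01) and SLC38A2 (-0.03) were not called. The call of SLC1A5 did not hold without experiment 2 (-0.11, adjusted p = 0.0765), nor with quantile normalization repeated (-0.07, adjusted p = 0.0763), and that of SLC7A5 did not hold without experiment 1 (-0.06, adjusted p = 0.149). The MMS set stood low in several members: at 4 h its untreated SLC1A5 mean was 7.57 ± 0.0276, against 8.06 to 8.46 in the other sets, and its SLC3A2 mean was 9.35 ± 0.0448, against 9.68 to 9.98. The ACTB signal near the 3′ end minus that near the 5′ end, which grows as RNA is broken or reverse transcription stops short, also stood apart in that set: its untreated mean at 4 h was 0.837 ± 0.0725 (SD, n = 3, log2), against 0.287 to 0.443 in the other sets, and its part in these levels was not tested. Every change below is therefore measured against the untreated arrays of the same set and time.

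**Figure D1:**
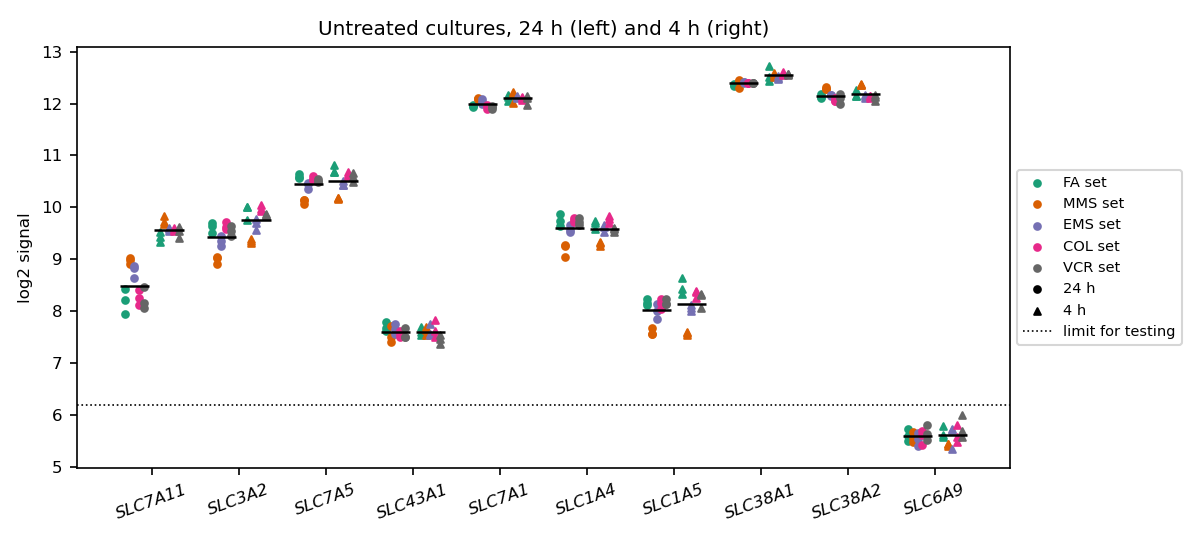
Log2 signal of the 10 members on the 30 untreated arrays, with 24 h arrays (circles) left of 4 h arrays (triangles), colours for the 5 sets, black lines for means over 15 arrays and a dotted line at the limit for testing (6.183). SLC7A11 falls into separate ranges at the 2 times, and SLC6A9 lies under the limit on every array. Levels of different genes come from different probes and are not to be compared.

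SLC6A9, the glycine transporter GLYT1, lay on chromosome 1 (43996483 to 44031462), and 0 of its 120 arrays reached the limit of 6.183 that at least 3 arrays had to pass. Its signal ranged from 5.13 to 5.99. With no limit applied, its difference from untreated lay between -0.14 and 0.23 over the 30 dose comparisons, and limma called it in 0 of them, with 0 at an unadjusted p under 0.05. Its probe set gives no level here beyond that bound, and SLC6A9 is left out of the counts that follow.

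The question of the study design was how each chemical shifted expression at each dose and time. The map of all 270 differences showed which members moved with each chemical, and some moved alike with several chemicals. At 4 h, MMS and EMS raised most members at the highest dose while FA lowered most of them. At 24 h, SLC3A2, SLC1A4 and SLC38A2 were higher and SLC7A5, SLC38A1 and SLC7A1 lower at the highest dose of FA, MMS and EMS, and SLC7A11 was the one member that rose at least 2-fold with COL and VCR.

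**Figure D2:**
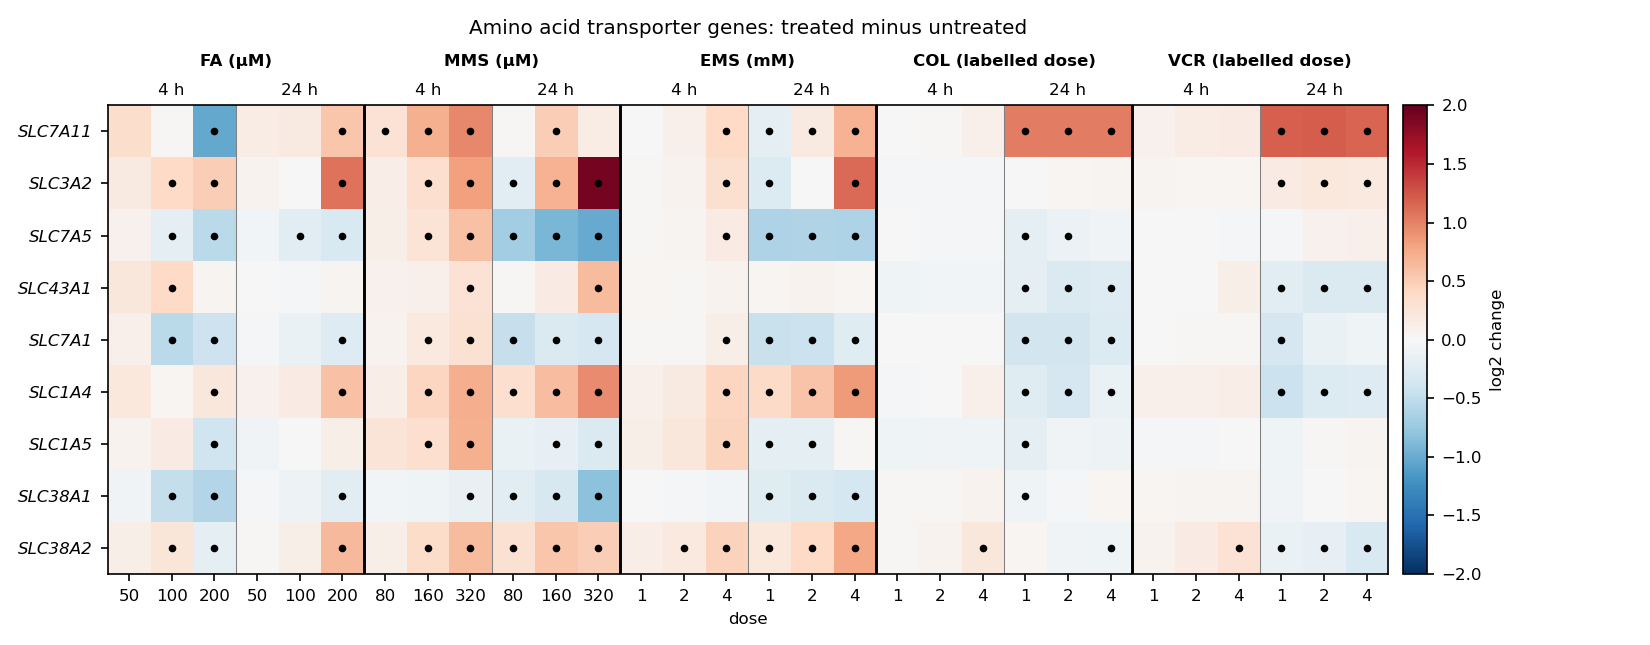
Log2 difference (treated minus untreated of the same set and time) of the 9 tested members in the 30 dose comparisons, with doses from low to high in each block and black dots where the gene was called. Red blocks for SLC7A11 at 24 h of COL and VCR reach 1.02 to 1.22, and the deepest red square is SLC3A2 at 24 h of 320 µM MMS (1.92).

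After 4 h of 50 µM FA, 0 of 9 members were called, against 0.82% of all tested genes. After 100 µM, 6 were called, 3 higher and 3 lower, against 40.7%. After 200 µM, 8 were called, against 53.8%: 2 were higher, against 29.6% of tested genes, and 6 were lower, against 24.2%. The median difference of the 9 members at 200 µM was -0.40, beside 0.08 over all tested genes. Over the 3 doses at 4 h, 14 of 27 pairs of member and dose were called. With the experiment number as a block, SLC7A11 (0.34, adjusted p = 0.0254) and SLC1A4 (0.21, adjusted p = 0.0399) were also called at 50 µM.

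After 24 h of FA, 0 members were called at 50 µM, where 0% of tested genes were. At 100 µM 1 was called, SLC7A5, against 3.81%. At 200 µM 7 were called, against 47.7%: 4 were higher, against 23.8%, and 3 were lower, against 23.9%. Over the 3 doses, 8 of 27 pairs were called.

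After 4 h of MMS, 1 member was called at 80 µM (SLC7A11), against 1.6% of tested genes. At 160 µM 7 were called and all were higher, against 13.5% called and 6.97% called higher among tested genes. At 320 µM all 9 were called, against 28.6%: 8 were higher, against 15.3%, and SLC38A1 was lower, against 13.4%. The median of the 9 differences was 0.63, beside 0.00 over all tested genes. Of the 27 pairs of member and dose, 17 were called.

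After 24 h of MMS, 6 members were called at 80 µM, against 28.5% of tested genes. At 160 µM 8 were called, against 47.3%. At 320 µM 8 were called, against 58.5%: 4 were higher, against 30.8%, and 4 were lower, against 27.7%. In all 22 of 27 pairs were called, 10 higher and 12 lower.

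After 4 h of EMS, 0 members were called at 1 mM, against 0.143% of tested genes, and 1 (SLC38A2) was called at 2 mM, against 1.06%. With the experiment as a block, SLC1A4 (0.17, adjusted p = 0.0369) and SLC1A5 (0.23, adjusted p = 0.0308) were called at 2 mM too. At 4 mM 7 were called and all were higher, against 9.6% of tested genes called, 5.55% higher and 4.05% lower. Their median over the 9 members was 0.32, beside -0.00 over all tested genes. Over the 3 doses, 8 of 27 pairs were called, and 4 to 5 when 1 experiment was left out.

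After 24 h of EMS, 8 members were called at 1 mM, against 24.3% of tested genes, and 7 at 2 mM, against 34.6%. At 4 mM 7 were called, against 51.5%: 4 were higher, against 27.8%, and 3 were lower, against 23.6%. Over the 3 doses, 22 of 27 pairs were called, 9 higher and 13 lower.

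After 4 h of COL, 0 members were called at the lowest and middle doses, against 0% and 0.0642% of tested genes, and SLC38A2 was the 1 member called at the highest, against 0.913%. After 4 h of VCR the picture was the same, with 0 members at the lowest and middle doses, against 0% and 0.00713%, and SLC38A2 alone at the highest, against 0.25%. After 24 h of COL, 7, 5 and 5 members were called from the lowest to the highest dose, against 37.3%, 37.7% and 36.4% of tested genes. With VCR for 24 h, 6, 5 and 5 were called, against 37.4%, 36.9% and 35.7%. At the highest COL dose 1 member was higher, against 18% of tested genes, and 4 were lower, against 18.3%. At the highest VCR dose 2 were higher, against 17.5%, and 3 were lower, against 18.2%. Over the 3 doses at 24 h, 17 of 27 pairs were called with COL, and 11 to 12 when 1 experiment was left out. With VCR 16 of 27 were called, and 11 when any 1 experiment was left out.

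SLC7A11, the cystine exchanger, moved in opposite directions at 4 h of FA and MMS. On the 3 arrays with 200 µM FA its log2 signal was 8.38, 8.47 and 8.36, against 9.33, 9.42 and 9.53 on the untreated arrays. On the 3 arrays with 320 µM MMS it was 10.68, 10.72 and 10.69, against 9.83, 9.68 and 9.72 untreated. Treated and untreated arrays did not overlap in either set. The difference was -1.02 with FA (SE 0.0976, adjusted p = 1.48e-08), a 2.03-fold lower signal, and 0.96 with MMS (SE 0.0647, adjusted p = 4.53e-10), a 1.94-fold higher one.

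The FA fall appeared between 100 and 200 µM. At 100 µM the arrays read 9.36, 9.52 and 9.49, within the untreated range (difference 0.03, adjusted p = 0.844), and at 50 µM they read 9.76, 9.77 and 9.78 (0.34, adjusted p = 0.119). The 50 µM arrays all lay above the untreated ones, and the 200 µM arrays all lay below. The signal at 200 µM was lower than at 100 µM by a log2 difference of -1.05 (SE 0.0976, adjusted p = 1.42e-08).

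With MMS the rise of SLC7A11 at 4 h followed the dose, with differences of 0.29, 0.72 and 0.96 at 80, 160 and 320 µM. The first of these was lost when any 1 experiment was left out (adjusted p between 0.152 and 0.438) and with the mean of its probe sets (0.13, adjusted p = 0.234). With EMS the difference at 4 h was 0.01 and 0.10 at 1 and 2 mM, neither called, and 0.40 at 4 mM (SE 0.0628, adjusted p = 0.00023), where the arrays read 9.98, 9.88 and 10.04, against 9.57, 9.60 and 9.55 untreated. With COL and VCR it was not called at 4 h, with differences between -0.01 and 0.16.

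At 24 h SLC7A11 was higher in all 3 experiments at every COL and VCR dose. At the highest COL dose the arrays read 9.26, 9.37 and 9.21, against 8.12, 8.41 and 8.26 untreated, and at the highest VCR dose 9.37, 9.48 and 9.34, against 8.07, 8.46 and 8.16 untreated. All treated arrays lay above all untreated ones of their set. The differences from the lowest to the highest dose were 1.02, 1.02 and 1.02 with COL (SE 0.0665, adjusted p between 1.91e-10 and 2.21e-10) and 1.19, 1.22 and 1.17 with VCR (SE 0.0823, adjusted p between 2.14e-10 and 3.96e-10). In these cultures too the monocyte and granulocyte markers were higher, with means of 6.128, against 5.87 untreated, at the highest COL dose and 6.01, against 5.83, at the highest VCR dose, and the red blood cell markers were lower (7.11, against 7.38, and 6.99, against 7.40); their part was not tested. No dose step was called: highest against lowest differed by -0.00 (adjusted p = 0.988) with COL and -0.02 (adjusted p = 0.913) with VCR. In the COL set the treated arrays at 24 h stayed under the untreated arrays at 4 h, which read 9.60, 9.56 and 9.55.

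With FA, SLC7A11 at 24 h was called at 200 µM, where the arrays read 8.66, 8.90 and 8.70, against 7.95, 8.43 and 8.22 untreated (difference 0.56, SE 0.0976, adjusted p = 5.57e-05). With EMS the arrays read 9.39, 9.50 and 9.53 at 4 mM, against 8.64, 8.82 and 8.87 untreated (0.70, SE 0.0628, adjusted p = 5.39e-09). All treated arrays lay above the untreated ones in both sets. At the lower EMS doses the differences were -0.20 at 1 mM and 0.18 at 2 mM. Both were called, but the first was lost without experiment 2 or 3 (adjusted p = 0.114 and 0.294) and the second under every alternative run except the experiment block (adjusted p between 0.0502 and 0.181).

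With MMS, SLC7A11 at 24 h was highest at the middle dose. The arrays read 9.06, 9.02 and 8.89 at 80 µM, 9.42, 9.51 and 9.45 at 160 µM and 9.20, 9.002 and 9.13 at 320 µM, against 8.90, 9.03 and 8.98 untreated. The difference was called at 160 µM (0.49, SE 0.0647, adjusted p = 1.92e-06) and not at 320 µM (0.14, adjusted p = 0.0655), where treated and untreated arrays overlapped. The 320 µM value was called with the mean of the probe sets (adjusted p = 0.0013) and without experiment 2 (adjusted p = 0.017). The next brightest probe set of SLC7A11 gave 0.42 there, and it moved in the same direction as the first in 16 of 16 called dose comparisons. A dimmer probe set of the gene (mean 6.54) did so in 13 of the 16, with differences between -0.30 and 0.68.

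**Figure D3:**
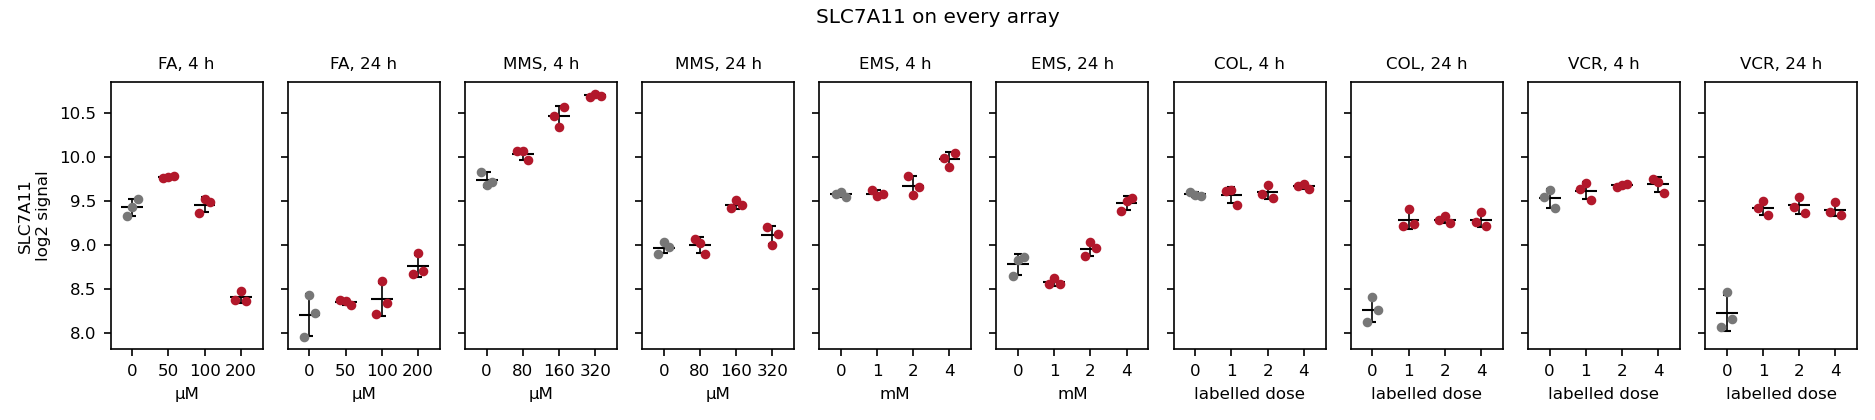
Log2 signal of SLC7A11 on every array, untreated (grey, dose 0) and treated (red) from low to high dose, in panels by chemical and time, with black lines for the mean and bars for the SD of 3 arrays. The 24 h COL and VCR panels show all 9 treated arrays near 9.2 to 9.6, and the 4 h FA panel shows the fall at 200 µM alone.

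SLC3A2, the heavy chain that both SLC7A11 and SLC7A5 need, lies on chromosome 11 (62856109 to 62888860) and had the largest rise of any member. After 24 h of 320 µM MMS its arrays read 10.997, 10.88 and 10.83, against 8.90, 9.03 and 9.02 untreated. After 24 h of 4 mM EMS they read 10.54, 10.47 and 10.46, against 9.26, 9.44 and 9.35, and after 24 h of 200 µM FA 10.73, 10.62 and 10.74, against 9.51, 9.69 and 9.64. Each treated array lay above every untreated array of its set in all 3 comparisons. The differences were 1.92 with MMS (SE 0.055, adjusted p = 3.31e-17), 1.14 with EMS (SE 0.0586, adjusted p = 8.6e-13) and 1.08 with FA (SE 0.069, adjusted p = 3.01e-11), or 3.79-, 2.2- and 2.12-fold.

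The rise of SLC3A2 at 24 h was called at 200 µM FA, 160 and 320 µM MMS and 4 mM EMS, and at no lower dose of these 3 chemicals. With FA it was 0.07 and 0.01 at 50 and 100 µM, neither called, and 200 µM exceeded 100 µM by 1.07 (SE 0.069, adjusted p = 6.4e-11). With MMS the difference was -0.23 at 80 µM (adjusted p = 0.00341) and 0.69 at 160 µM (adjusted p = 1.28e-09), and with EMS it was -0.28 at 1 mM (adjusted p = 0.00146) and -0.00 at 2 mM, which was not called. At the lowest MMS and EMS doses all 3 treated arrays lay below all 3 untreated ones. The 3′ minus 5′ difference of ACTB differed at these doses too: it was 1.88 ± 0.26 at 320 µM MMS, against 0.941 ± 0.0792 untreated, 0.664 ± 0.0342 at 4 mM EMS, against 0.521 ± 0.0715, and 0.768 ± 0.0697 at 200 µM FA, against 0.481 ± 0.0239 (SD, n = 3, log2). Mean log2 signals of marker lists differed as well: the 4 red blood cell markers read 6.47 at 24 h of 320 µM MMS, against 7.36 untreated, 6.65 at 4 mM EMS, against 7.33, and 6.82 at 200 µM FA, against 7.41. The 7 B cell markers read 9.89 with MMS, against 10.26, 10.41 with EMS, against 10.48, and 10.35 with FA, against 10.54, and the 8 monocyte and granulocyte markers 6.06, against 5.81, 5.996, against 5.81, and 6.19, against 5.83. Of these 8, CD14, LYZ, MPO and ELANE were under the limit on every array. CSF1R and S100A9 were above it on all 120 arrays, and S100A8 and ITGAM on 109. The part of ACTB and of the markers in any 24 h result here was not tested.

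At 4 h SLC3A2 rose with all 3 of these chemicals. It was 0.40 and 0.50 higher at 100 and 200 µM FA (adjusted p = 7.05e-05 and 3.28e-06), 0.34 and 0.82 higher at 160 and 320 µM MMS (adjusted p = 0.000188 and 3.77e-10) and 0.32 higher at 4 mM EMS (adjusted p = 0.000964), the last lost without experiment 3 (0.26, adjusted p = 0.0645). SLC3A2 thus rose at 4 h of 200 µM FA, where SLC7A11 and SLC7A5, its partners, fell. With VCR it was 0.16, 0.22 and 0.20 higher at 24 h from the lowest to the highest dose, with arrays of 9.78, 9.79 and 9.67 at the highest, against 9.46, 9.65 and 9.53 untreated, and no overlap. All 3 calls were lost without experiment 1 (adjusted p = 0.213, 0.105 and 0.191). With COL it was not called at 24 h, with differences between -0.01 and 0.05.

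SLC7A5, the light chain LAT1, lies on chromosome 16 (87830023 to 87869507) and turned from a rise at 4 h to a fall at 24 h with MMS and EMS. With 320 µM MMS for 4 h its arrays read 10.69, 10.75 and 10.84, against 10.17, 10.17 and 10.18 untreated, a difference of 0.59 (SE 0.056, adjusted p = 7.03e-08). At 24 h of the same dose they read 9.07, 9.08 and 9.14, against 10.06, 10.13 and 10.13, a difference of -1.01 (SE 0.056, adjusted p = 1.2e-12), or 2.02-fold lower. No treated array overlapped an untreated one at either time. The fall at 24 h was present at 80 µM (-0.70, adjusted p = 9.3e-09) and 160 µM (-0.91, adjusted p = 2.34e-11), and at 4 h the rise was 0.27 at 160 µM, lost without experiment 2 (adjusted p = 0.0819).

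With EMS the fall of SLC7A5 at 24 h was as large at 1 mM as at 4 mM. The arrays at 4 mM read 9.84, 9.78 and 9.80, against 10.35, 10.48 and 10.45 untreated. The differences were -0.62, -0.60 and -0.62 from 1 to 4 mM (SE 0.0446, adjusted p between 1.61e-10 and 2.03e-09), and highest against lowest dose differed by -0.00 (adjusted p = 0.95). SLC3A2 in the same cultures was below untreated at 1 mM and above it at 4 mM. At 4 h of 4 mM SLC7A5 was 0.16 higher (adjusted p = 0.0234), which was lost without any 1 experiment (adjusted p between 0.101 and 0.288).

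With FA SLC7A5 fell at both times. At 4 h of 200 µM the arrays read 10.12, 10.27 and 10.18, against 10.68, 10.68 and 10.82 untreated (-0.54, SE 0.058, adjusted p = 9.34e-08), and at 24 h 10.26, 10.36 and 10.24, against 10.56, 10.63 and 10.59 (-0.31, SE 0.058, adjusted p = 0.00013). Treated arrays lay below untreated ones at both times. At 100 µM it was -0.18 at 4 h (adjusted p = 0.0194), which was lost without the untreated array that stood apart (-0.13, adjusted p = 0.103) and without experiment 1 or 3 (adjusted p = 0.164 and 0.19). With 100 µM for 24 h it was -0.23 (adjusted p = 0.0249), lost without any 1 experiment (adjusted p between 0.169 and 0.234) and, narrowly, with dim genes included (adjusted p = 0.0504). With COL at 24 h SLC7A5 was -0.18 and -0.12 at the lowest and middle doses, lost without experiment 1 (adjusted p = 0.0573 and 0.131) and the second also without experiment 3 (adjusted p = 0.2), and -0.07, not called, at the highest. With VCR the differences at 24 h lay between -0.02 and 0.10 and were not called, although quantile normalization repeated called the middle and highest doses (adjusted p = 0.0208 and 0.0221).

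**Figure D4:**
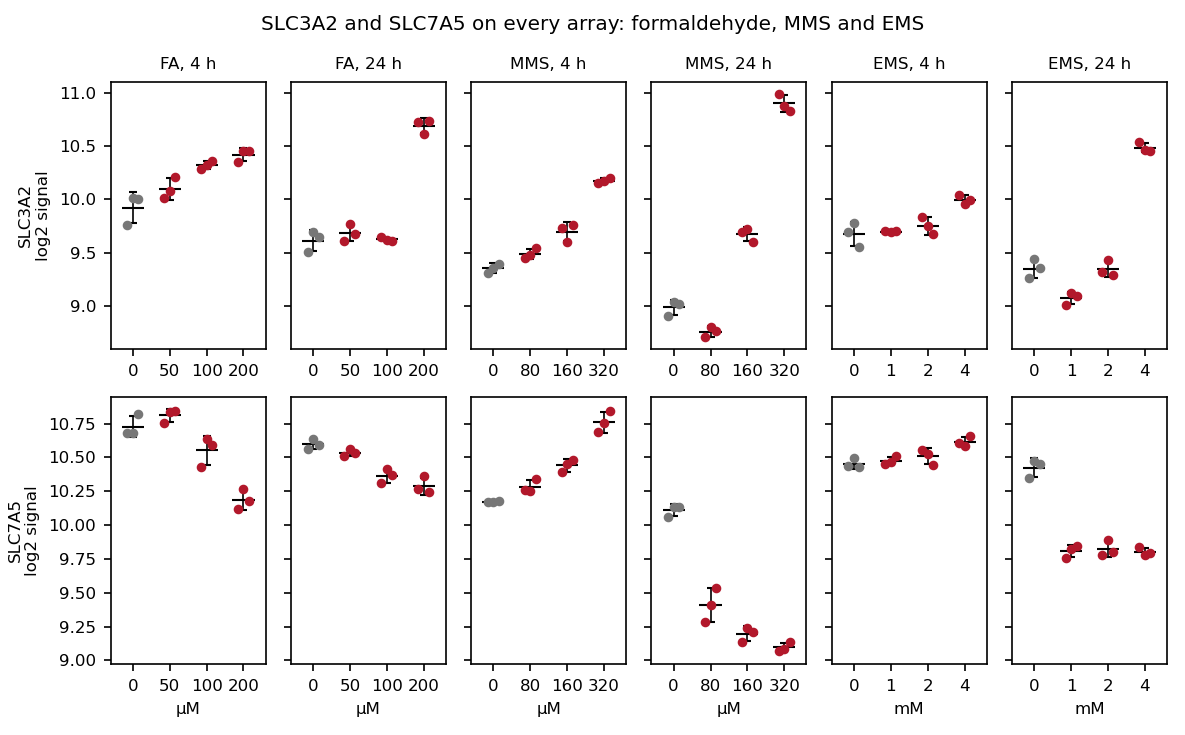
Log2 signal of SLC3A2 (top) and SLC7A5 (bottom) on every array of the FA, MMS and EMS sets, untreated (grey, dose 0) and treated (red) from low to high dose, with the mean and SD of 3 arrays. At 24 h of MMS and EMS the heavy chain SLC3A2 reads 10.83 to 10.997 and 10.46 to 10.54 at the highest dose, while SLC7A5 lies below untreated at every dose.

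SLC43A1, or LAT3, carries leucine and related amino acids without exchange or a heavy chain and lies on chromosome 11 (57484534 to 57515702). It rose most at 24 h of 320 µM MMS, where its arrays read 8.18, 8.13 and 8.20, against 7.49, 7.71 and 7.40 untreated (0.64, SE 0.0811, adjusted p = 6.03e-07). At 4 h of 100 µM FA they read 8.01, 7.99 and 8.03, against 7.69, 7.53 and 7.60 (0.40, SE 0.0661, adjusted p = 4.26e-05). No arrays overlapped in these 2 comparisons. At 200 µM FA at 4 h SLC43A1 overlapped the untreated arrays (0.06, adjusted p = 0.47), lower than at 100 µM by -0.34 (SE 0.0661, adjusted p = 0.000264). With 320 µM MMS for 4 h it was 0.29 higher (adjusted p = 0.0101), lost without experiment 1 (0.28, adjusted p = 0.171). With EMS it was called in 0 of 6 dose comparisons, with differences between 0.03 and 0.07.

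At 24 h of COL and VCR SLC43A1 was lower by log2 differences of -0.20, -0.28 and -0.26 with COL (adjusted p = 0.0146, 0.0011 and 0.00254) and -0.23, -0.28 and -0.28 with VCR (adjusted p = 0.0451, 0.015 and 0.0159). At the highest doses the arrays read 7.32, 7.30 and 7.27 with COL, against 7.56, 7.62 and 7.49 untreated, and 7.42, 7.31 and 7.10 with VCR, against 7.49, 7.68 and 7.50. Neither overlapped, but the lowest VCR dose did. All 6 calls were lost without experiment 2 (adjusted p between 0.0546 and 0.204), and 4 of them also without experiment 3 (adjusted p between 0.0525 and 0.146).

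SLC7A1, or CAT1, brings in arginine and lysine and lies on chromosome 13 (29509414 to 29595688). It fell with FA at 4 h, where the 100 µM arrays read 11.52, 11.67 and 11.56 and the 200 µM arrays 11.71, 11.74 and 11.64, against 12.17, 12.13 and 12.05 untreated. All treated arrays lay below the untreated ones, by differences of -0.53 (SE 0.0506, adjusted p = 2.72e-08) and -0.42 (SE 0.0506, adjusted p = 4.98e-07). With 200 µM FA for 24 h it was -0.25 (adjusted p = 0.000272).

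With MMS SLC7A1 was higher at 4 h and lower at 24 h: at 320 µM the arrays read 12.48, 12.43 and 12.41 at 4 h, against 12.22, 12.17 and 12.01 untreated (0.31, SE 0.0527, adjusted p = 0.000108), and 11.80, 11.77 and 11.73 at 24 h, against 12.08, 12.11 and 12.09 (-0.33, SE 0.0527, adjusted p = 1.26e-05). It was already -0.47 at 80 µM at 24 h (adjusted p = 1.07e-06). With EMS at 24 h it was -0.44, -0.44 and -0.24 from 1 to 4 mM, and the fall was smaller at the highest than the lowest dose by 0.20 (SE 0.0387, adjusted p = 0.000177), which was lost with the mean of its probe sets (0.07, adjusted p = 0.262). With COL at 24 h it was -0.37, -0.37 and -0.27, and with VCR -0.33, -0.14 and -0.08, of which the lowest dose alone was called (the middle one too with the experiment as a block, adjusted p = 0.0126).

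SLC7A1 has 5 probe sets, and the choice matters for it more than for other members. With their mean in place of the brightest, the calls at 200 µM FA at 4 h (-0.09, adjusted p = 0.138), 320 µM MMS at 4 h (0.10, adjusted p = 0.125), the middle and highest COL doses (adjusted p = 0.057 and 0.451) and the lowest VCR dose (adjusted p = 0.778) at 24 h were lost. So was that of 0.19 at 160 µM MMS at 4 h (adjusted p = 0.812), which also failed without any 1 experiment (adjusted p between 0.105 and 0.199). The 0.12 at 4 h of 4 mM EMS (adjusted p = 0.0472) was lost under every alternative run but the block and quantile normalization (adjusted p between 0.0613 and 0.357). Of the other 4 probe sets, the brightest went the same way as the one used in 15 of 16 called dose comparisons, and the others in 13, 10 and 9. The probe set with 10 (mean 4.91) was under the limit for testing on every array, and it too entered the mean of probe sets.

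SLC1A4, or ASCT1, exchanges alanine, serine and cysteine and lies on chromosome 2 (64988479 to 65023865). It rose at 24 h of every MMS and EMS dose. The arrays read 10.23, 10.07 and 10.11 at 320 µM MMS, against 9.28, 9.25 and 9.05 untreated, 10.46, 10.46 and 10.38 at 4 mM EMS, against 9.53, 9.65 and 9.57, and 10.32, 10.31 and 10.37 at 200 µM FA, against 9.63, 9.87 and 9.74. Treated and untreated arrays did not overlap. The differences were 0.95 with MMS (SE 0.0624, adjusted p = 1.94e-11), 0.85 with EMS (SE 0.0469, adjusted p = 2.75e-12) and 0.59 with FA (SE 0.0706, adjusted p = 4.33e-07). The values followed the dose, with 0.33 and 0.61 at 80 and 160 µM MMS and 0.38 and 0.58 at 1 and 2 mM EMS, all called, and the highest dose exceeded the lowest by 0.62 (adjusted p = 2.37e-08) and 0.46 (adjusted p = 6.15e-08).

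At 4 h SLC1A4 was 0.43 and 0.72 higher at 160 and 320 µM MMS and 0.43 higher at 4 mM EMS (adjusted p = 6.37e-05, 1.72e-08 and 3.31e-06). At 4 h of 200 µM FA its 0.23 (adjusted p = 0.00838) changed sign with the mean of its 5 probe sets (-0.02, adjusted p = 0.758) and was lost without experiment 3 (adjusted p = 0.111). At 24 h SLC1A4 was lower with COL (-0.25, -0.34 and -0.14) and VCR (-0.43, -0.28 and -0.26, adjusted p between 8.5e-07 and 0.000387). At the highest VCR dose the arrays read 9.45, 9.49 and 9.46, against 9.65, 9.80 and 9.71 untreated, with no overlap. The COL value at the highest dose (adjusted p = 0.0124) was lost without experiment 2 or 3 (adjusted p = 0.0893 and 0.164) and with quantile normalization repeated (adjusted p = 0.0904).

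SLC1A5, or ASCT2, is the main glutamine carrier of many dividing cells and lies on chromosome 19 (46774883 to 46788594). At 4 h it was higher with MMS and EMS and lower with FA. The arrays read 8.33, 8.22 and 8.31 at 320 µM MMS, against 7.54, 7.58 and 7.60 untreated, 8.51, 8.51 and 8.49 at 4 mM EMS, against 8.06, 8.12 and 8.004, and 7.98, 8.15 and 8.04 at 200 µM FA, against 8.32, 8.42 and 8.63. None of the 3 pairs of groups overlapped. The differences were 0.71 (SE 0.0676, adjusted p = 6.78e-08), 0.44 (SE 0.0593, adjusted p = 3.97e-05) and -0.40 (SE 0.0708, adjusted p = 6.7e-05).

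At 4 h of 100 µM FA SLC1A5 was 0.17 (adjusted p = 0.0583), called as 0.26 without the untreated array that stood apart (adjusted p = 0.0051), and 200 µM lay below 100 µM by -0.57 (SE 0.0708, adjusted p = 1e-06). At 24 h the differences were small: -0.17 and -0.29 at 160 and 320 µM MMS, -0.20 and -0.18 at 1 and 2 mM EMS and -0.18 at the lowest COL dose were called. Each of these 5 was lost without experiment 1 (adjusted p between 0.0528 and 0.304). The rise of 0.34 at 4 h of 160 µM MMS was lost without experiment 1 too (adjusted p = 0.0581). With VCR SLC1A5 was called in 0 of 6 comparisons, with differences between -0.08 and 0.06.

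SLC38A1 and SLC38A2, or SNAT1 and SNAT2, are sodium-driven carriers of glutamine and other small neutral amino acids that lie near each other on chromosome 12 (46183063 to 46269043 and 46358188 to 46372773). SNAT2 is the carrier known for its induction when amino acids are withdrawn. With MMS, EMS and FA the neighbours moved in opposite directions at 24 h. At 320 µM MMS SLC38A1 read 11.62, 11.43 and 11.65, against 12.44, 12.43 and 12.30 untreated, and SLC38A2 read 12.81, 12.68 and 12.85, against 12.33, 12.27 and 12.28. SLC38A1 lay below and SLC38A2 above untreated on every array, by -0.82 (SE 0.0532, adjusted p = 1.46e-11) and 0.49 (SE 0.0437, adjusted p = 3.02e-09).

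The same held at 24 h of 4 mM EMS, where SLC38A1 read 12.05, 12.05 and 12.05, against 12.40, 12.42 and 12.41 (-0.36, SE 0.0388, adjusted p = 9.09e-08), and SLC38A2 read 12.93, 12.94 and 12.92, against 12.16, 12.15 and 12.17 (0.77, SE 0.0309, adjusted p = 1.67e-14). At 24 h of 200 µM FA SLC38A1 was -0.22 (SE 0.0588, adjusted p = 0.00355) and SLC38A2 was 0.64 (SE 0.0476, adjusted p = 3.08e-10). At 80 and 160 µM MMS SLC38A1 was -0.21 and -0.32 and SLC38A2 0.30 and 0.55, and at 1 and 2 mM EMS SLC38A1 was -0.25 and -0.29 and SLC38A2 0.22 and 0.40, all called. Of these, SLC38A1 at 80 µM MMS was lost without experiment 1 (adjusted p = 0.114).

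At 4 h SLC38A1 fell with FA, to 12.00, 12.16 and 12.08 at 100 µM and 11.95, 11.98 and 11.95 at 200 µM, against 12.43, 12.50 and 12.72 untreated. All 6 treated arrays were below the untreated ones, by -0.47 (adjusted p = 1.37e-06) and -0.59 (adjusted p = 3.09e-08). With the mean of its 4 probe sets the falls were -0.20 and -0.22 (adjusted p = 0.00463 and 0.00161), and the dimmest of the 4 went the other way (0.16 and 0.36). That probe set agreed in direction with the one used in 3 of 11 called dose comparisons, and the other two in 9 and 11. Over the 30 dose comparisons SLC38A1 was called lower in 11 and higher in 0, and with the experiment as a block also lower at 24 h of the lowest VCR dose (-0.07, adjusted p = 0.0484). The smallest of these calls, -0.16 at 4 h of 320 µM MMS and -0.09 at 24 h of the lowest COL dose (adjusted p = 0.0319 and 0.0205), were each lost without experiment 1 (adjusted p = 0.323 and 0.308) and with dim genes included (adjusted p = 0.0571 and 0.0503).

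SLC38A2 at 4 h rose with MMS (0.37 and 0.63 at 160 and 320 µM, adjusted p = 5.2e-06 and 6.84e-10) and EMS (0.47 at 4 mM, adjusted p = 2.35e-09). With FA it was 0.24 higher at 100 µM (adjusted p = 0.000332) and 0.19 lower at 200 µM (-0.19, adjusted p = 0.00191). At 200 µM the arrays read 11.95, 12.06 and 11.97, against 12.15, 12.15 and 12.26 untreated, without overlap, and the fall was lost without experiment 3 (-0.15, adjusted p = 0.0988). At 2 mM EMS it was 0.19 higher (adjusted p = 0.00152), lost without any 1 experiment (adjusted p between 0.157 and 0.28).

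SLC38A2 was the sole member called at 4 h of COL or VCR. At the highest COL dose its arrays read 12.35, 12.34 and 12.37, against 12.10, 12.14 and 12.15 untreated, and at the highest VCR dose 12.38, 12.40 and 12.42, against 12.12, 12.16 and 12.04. All 6 treated arrays lay above the untreated ones, by 0.22 (SE 0.0288, adjusted p = 0.000137) and 0.29 (SE 0.0458, adjusted p = 0.00524). The COL call was lost without experiment 1 or 3 (adjusted p = 0.102 and 0.092) and the VCR call without any 1 experiment (adjusted p between 0.0796 and 0.265). At 24 h the sign was the opposite: -0.13, -0.16 and -0.30 with VCR (adjusted p = 0.0319, 0.00869 and 2.24e-05), with 11.76, 11.84 and 11.78 at the highest dose, against 11.99, 12.18 and 12.10 untreated. The lowest VCR dose overlapped untreated and was lost without any 1 experiment (adjusted p between 0.0878 and 0.178), and the middle dose without experiment 2 or 3 (adjusted p = 0.167 and 0.0873). With COL at 24 h the differences were 0.03, -0.07 and -0.08. The highest dose was called (adjusted p = 0.0317), which held under no alternative but the block (adjusted p between 0.0511 and 0.313), and with the experiment as a block the middle one was called too (adjusted p = 0.0338). The other 2 SLC38A2 probe sets moved the same way as the one used in 19 of 19 called dose comparisons.

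The change at the highest dose was next compared between times, as the difference at 24 h minus that at 4 h. Such a difference holds the change of the untreated arrays with time as well as that of the treated ones. Untreated SLC7A11 was itself lower at 24 h than at 4 h, by -1.08 averaged over the sets. With FA, 7 of 9 members were called, against 53.3% of tested genes, and all 7 differences were positive, against 25.8%. SLC7A11 had the largest difference (1.58, SE 0.138, adjusted p = 4.13e-09), followed by SLC38A2 (0.84), SLC3A2 (0.58) and SLC1A5 (0.52). With MMS 8 were called, against 45.2%: SLC7A5 (-1.60, SE 0.0792, adjusted p = 1.66e-12), SLC1A5 (-1.004) and SLC7A11 (-0.81) were negative, and SLC3A2 (1.10, SE 0.0777, adjusted p = 2.77e-10) was positive. With EMS 8 were called, against 38.3%, among them SLC3A2 (0.82) and SLC7A5 (-0.78). With COL 4 were called, against 22.5%, and with VCR 4, against 22.4%, with SLC7A11 at 0.92 and 1.01. With the experiment as a block SLC7A1 with FA (0.17, adjusted p = 0.0244), SLC38A2 with MMS (-0.14, adjusted p = 0.0457) and SLC43A1 with COL (-0.20, adjusted p = 0.0292) were called too. With the mean of probe sets SLC38A1 with FA was not called (0.07, adjusted p = 0.451, against 0.37). Without the untreated array that stood apart, SLC7A5 with FA was not called (0.19, adjusted p = 0.0623) and SLC7A1 was (0.20, adjusted p = 0.022). Together 31 of 45 pairs of member and chemical were called.

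**Figure D5:**
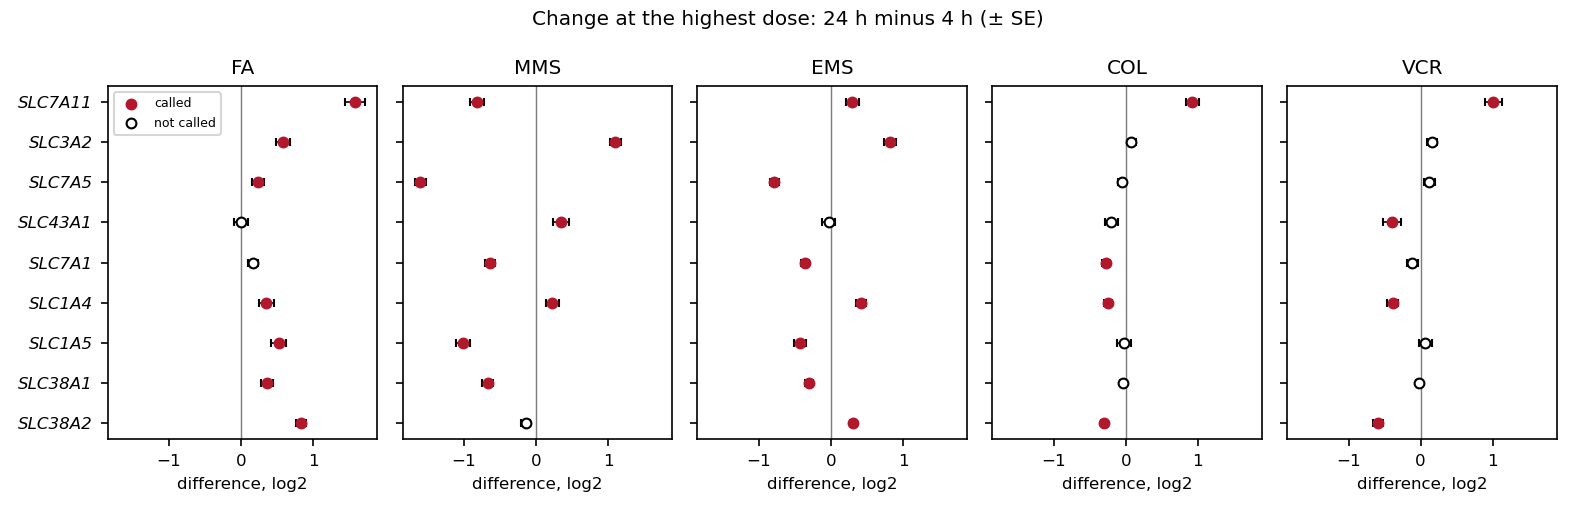
Difference between the changes at 24 h and at 4 h (highest dose minus untreated, 24 h minus 4 h, log2, with bars for the SE) for the 9 tested members in each set, with filled points where called. SLC7A11 is right of 0 for FA (1.58), EMS (0.30), COL (0.92) and VCR (1.01) and left of it for MMS (-0.81), and SLC7A5 is far left for MMS (-1.60). A point right of 0 can come from a lower untreated signal at 24 h as well as from a higher treated one.

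Between the highest and the lowest dose, 8 members were called with FA at 4 h, against 46.3% of tested genes, and 8 at 24 h, against 46.3%. With MMS 7 were called at 4 h, against 17.4%, and 7 at 24 h, against 52.4%. With EMS 5 were called at 4 h, against 2.4%, and 7 at 24 h, against 43.7%. With COL 1 was called at 4 h, against 0.62%, and 2 at 24 h, against 13.7%, and with VCR 0 at 4 h, against 0.00713%, and 4 at 24 h, against 13.6%. Over these comparisons 49 of 90 pairs were called, and 32 without experiment 1, the fewest of the 3 with 1 experiment left out. The 5 calls with EMS at 4 h became 2, 3 and 3 without experiments 1, 2 and 3, the 2 with COL at 24 h became 0, 1 and 0, and the 4 with VCR at 24 h became 0, 0 and 1. The 1 call with COL at 4 h was lost without any 1 experiment. With the mean of probe sets 0 were called with COL and 2 with VCR at 24 h. With the experiment as a block SLC38A2 at 4 h of VCR (0.22, adjusted p = 0.0453) and SLC7A5 at 24 h of COL (0.10, adjusted p = 0.0193) and of VCR (0.12, adjusted p = 0.0451) were called as well. The widest step was SLC3A2 at 24 h of MMS (2.15, SE 0.055, adjusted p = 2.1e-17). Between 200 and 100 µM FA 6 members were called at 4 h, against 34.9%, and 4 at 24 h, against 42.8%. At 4 h SLC7A11, SLC1A5, SLC38A2, SLC7A5 and SLC43A1 were lower at 200 µM, and SLC1A4 was higher by 0.19 (adjusted p = 0.0384), which was lost when any 1 experiment was left out (adjusted p between 0.0581 and 0.239), with the mean of its probe sets (0.02, adjusted p = 0.74) and with dim genes included (adjusted p = 0.0596). With the experiment as a block SLC7A1 was called at both times (0.11, adjusted p = 0.0445 at 4 h and -0.12, adjusted p = 0.0316 at 24 h). Without the untreated array that stood apart SLC38A1 was called at both times (-0.12, adjusted p = 0.0417 at 4 h and -0.12, adjusted p = 0.0355 at 24 h). At 24 h the 4 members were SLC3A2 (1.07), SLC38A2 (0.53), SLC1A4 (0.42) and SLC7A11 (0.38, adjusted p = 0.00304), all higher at 200 µM, and the last was lost without experiment 3 (adjusted p = 0.0529).

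FA was set against each other chemical at their highest doses, which are not matched in effect. At 4 h 8 of 9 members differed between FA and MMS, against 39.8% of tested genes, and all 8 were lower with FA, against 21.4%. The difference between the changes was -1.98 for SLC7A11 (SE 0.12, adjusted p = 1.65e-16), -1.13 for SLC7A5 and -1.11 for SLC1A5. SLC38A1 was lost with the mean of probe sets (-0.07, adjusted p = 0.456, against -0.43), and SLC3A2 (-0.32) was lost without experiment 2 or 3 (adjusted p = 0.0532 and 0.0519). Against EMS 6 members differed at 4 h, against 42.1%, all lower with FA, against 21.4%. Against COL 7 differed, against 43.3%, and 6 were lower, against 22.2%. Against VCR 7 differed, against 43.4%, and 6 were lower, against 22.2%, and in both SLC3A2 was the 1 member higher with FA (0.52 and 0.46). With the mean of probe sets SLC38A1 against EMS (-0.14, adjusted p = 0.0846) and SLC7A1 against COL (-0.13, adjusted p = 0.135) and VCR (-0.13, adjusted p = 0.197) were not called. The call of SLC1A5 against COL was lost without experiment 1 or 3 and with quantile normalization repeated. Against VCR it was lost without experiment 3 (adjusted p = 0.0918).

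At 24 h 2 members differed between FA and EMS, against 24.7% of tested genes, SLC7A5 by 0.32 (SE 0.0706, adjusted p = 0.00082) and SLC1A4 by -0.26 (adjusted p = 0.0196), and the call of SLC1A4 was lost without any 1 experiment (adjusted p between 0.0502 and 0.2). FA and MMS differed in 8 members at 24 h, against 36%, with SLC3A2 lower by -0.84 and SLC7A5 higher by 0.70 with FA. Of these 8 calls, SLC38A2 (0.16) was lost without any 1 experiment, with dim genes included and with quantile normalization repeated. SLC1A5 was lost without experiment 1 (adjusted p = 0.0521) and SLC7A11 without experiment 3 (adjusted p = 0.0554). FA and COL differed in 7, against 32.7%, and FA and VCR in 7, against 34.5%, with SLC3A2, SLC38A2 and SLC1A4 higher with FA by 1.03, 0.73 and 0.73 against COL and 0.88, 0.94 and 0.84 against VCR. With the experiment as a block 4 more were called: SLC1A4 against EMS at 4 h (-0.19, adjusted p = 0.0116), SLC38A2 against EMS at 24 h (-0.13, adjusted p = 0.0288), SLC1A5 against COL (0.23, adjusted p = 0.0333) and SLC7A1 against VCR (-0.17, adjusted p = 0.0188) at 24 h. SLC38A2 against EMS at 24 h was also called without the untreated array that stood apart (-0.13, adjusted p = 0.0451). Without experiment 3, 4 of the 7 calls against COL at 24 h were left. At 24 h SLC43A1 was lost without experiment 2 or 3 against both COL and VCR, and SLC7A5 against COL without experiment 1 or 3. In all 52 of 72 such pairs were called. These comparisons share the FA arrays and are not independent of each other.

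MMS and EMS differ by a methyl in place of an ethyl group and were given at different doses, so their values are set side by side without a test. At 24 h of the highest dose SLC3A2 was 1.92 with MMS and 1.14 with EMS, SLC7A5 -1.01 and -0.62, SLC38A1 -0.82 and -0.36, SLC1A4 0.95 and 0.85, and SLC38A2 0.49 and 0.77. SLC7A11 was 0.14 with MMS, not called, and 0.70 with EMS, and SLC43A1 was 0.64 with MMS and 0.03, not called, with EMS. As given above, the SLC7A11 value with MMS was called with the mean of its probe sets, and its next brightest probe set gave a larger difference.

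COL and VCR were compared at the highest labelled dose of each. At 4 h 0 of 9 members differed, against 0.057% of tested genes, and at 24 h 1 did, against 2.02%. That was SLC38A2, higher with COL by 0.22 (SE 0.0497, 95% interval 0.12 to 0.32, adjusted p = 0.0106), a call lost without any 1 experiment (adjusted p between 0.132 and 0.339). With the experiment as a block SLC7A1 (-0.19, adjusted p = 0.0218) and SLC7A5 (-0.18, adjusted p = 0.029) were called as well, so that 3 of 18 pairs were called in place of 1. For SLC7A11 the 24 h difference was -0.15, with a 95% interval of -0.37 to 0.07 (adjusted p = 0.751).

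Other genes of amino acid supply were described from lists written from general knowledge, with earlier results of these data known. Their counts are therefore a description. Of 36 other plasma membrane and lysosomal amino acid transporters 22 were tested. At the highest doses and 24 h, 7 were higher and 5 lower with FA, 8 and 4 with MMS, 5 and 3 with EMS, 4 and 2 with COL and 5 and 2 with VCR, where 47.7%, 58.5%, 51.5%, 36.4% and 35.7% of all tested genes were called. Their median difference lay between -0.03 and 0.06 in these 5 comparisons, beside -0.04 to -0.00 over all tested genes. SLC7A6, another light chain of SLC3A2, rose by 1.05 at 24 h of 4 mM EMS (SE 0.0776, adjusted p = 2.57e-10) and by 0.60 at 24 h of 200 µM FA. SLC38A5, a relative of SLC38A1, was -0.84 and -0.83 in the same comparisons. SLC38A9, the lysosomal arginine sensor of mTORC1, was 1.14 higher at 24 h of 320 µM MMS (SE 0.0704, adjusted p = 7.34e-12), and SLC6A6, the taurine carrier, fell by 0.91 at 4 h of 200 µM FA (adjusted p = 5.79e-11).

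Of the 26 ATF4 and amino acid response genes 25 were tested. At 4 h 22 were higher and 1 lower at 320 µM MMS (median 0.74), 21 higher and 0 lower at 4 mM EMS (median 0.42), and 10 higher and 11 lower at 200 µM FA (median -0.07), where 28.6%, 9.6% and 53.8% of all tested genes were called and their medians were 0.00, -0.00 and 0.08. STC2 and INHBE, which encode secreted stress proteins, were 2.503 and 2.68 higher at 4 h of MMS, and CHAC1, which breaks down glutathione, was 1.37 higher at 4 h of EMS. At 24 h 18 were higher and 3 lower with FA, 13 and 4 with MMS, 19 and 3 with EMS, 11 and 10 with COL, and 12 and 7 with VCR, against 47.7%, 58.5%, 51.5%, 36.4% and 35.7% of all tested genes. ATF3, a stress-induced factor, was higher at 24 h with all 5, by 3.21 with FA, 3.42 with MMS, 2.92 with EMS, 1.62 with COL and 1.49 with VCR. No test of the list against other genes was run. ATF4 itself, named here outside the rule, was 0.14 at 4 h of 200 µM FA, 0.68 at 4 h of 320 µM MMS and 0.42 at 4 h of 4 mM EMS (adjusted p = 0.00703, 4.1e-11 and 7.31e-07). At 24 h of the highest doses it was 0.21 with FA, 0.52 with MMS, 0.37 with EMS, 0.12 with COL and 0.34 with VCR, all called.

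Of 20 NRF2 and glutathione genes 18 were tested. At 4 h 11 were higher and 1 lower at 320 µM MMS, 5 and 1 at 4 mM EMS and 9 and 5 at 200 µM FA, against 28.6%, 9.6% and 53.8% of all tested genes. At 4 h of 200 µM FA NFE2L2, the gene of NRF2, was -1.19 (SE 0.0997, adjusted p = 2.05e-09). It was 0.49 at 4 h of 100 µM FA, 0.53 at 4 h of 320 µM MMS and 0.32 at 4 h of 4 mM EMS, all called. HMOX1, which degrades haem, was 2.70 higher at 4 h of MMS (SE 0.0907, adjusted p = 5e-15). At 24 h 5 were higher and 9 lower with FA, 9 and 4 with MMS, 9 and 3 with EMS, 5 and 5 with COL and 5 and 6 with VCR, against 47.7%, 58.5%, 51.5%, 36.4% and 35.7%. At the highest COL and VCR doses at 24 h, where SLC7A11 was higher, HMOX1 was -0.39 and -1.27. NFE2L2, named there outside the rule, was 0.12 and 0.23, both called. GCLM was -0.43 with COL, and GPX4 was 0.41 with VCR. GSS, the glutathione synthetase, was higher at 24 h with FA (0.73), MMS (1.36) and EMS (1.29).

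Of 20 cytosolic aminoacyl-tRNA synthetases, the enzymes that load amino acids onto tRNA, 17 were tested. At 24 h 3 were higher and 12 lower with FA, 3 and 12 with MMS, 3 and 10 with EMS, 3 and 9 with COL and 5 and 5 with VCR, against 47.7%, 58.5%, 51.5%, 36.4% and 35.7% of all tested genes. SARS1 was 1.52 higher and VARS1 was -1.05 at 24 h of 320 µM MMS (adjusted p = 1.69e-15 and 1.66e-11). Of 24 genes of leucine sensing and mTORC1 23 were tested, and at 24 h 12 were higher and 4 lower with FA, 13 and 4 with MMS, 11 and 3 with EMS, 11 and 2 with COL and 8 and 2 with VCR, against the same shares of all tested genes. SESN1, which encodes a sestrin that holds mTORC1 back, was 2.31 higher with MMS, 2.11 with EMS, 1.93 with FA, 0.82 with COL and 0.55 with VCR at 24 h.

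Likeness among the members was measured as Pearson's r over the 40 group means, each gene centred within its set. These points share arrays, sets and untreated cultures, so r is a description without a p-value. The highest values were 0.84 for SLC1A4 with SLC38A2, 0.814 for SLC7A5 with SLC1A5 and 0.805 for SLC7A5 with SLC38A1. SLC1A4 and SLC38A1 had an r of -0.419, the lowest among the tested members. Outside the members, the tested gene most like SLC7A11 was HNRNPA1 (0.921), that most like SLC3A2 was PIGH (0.95), that most like SLC7A5 was ZNF22 (0.913), that most like SLC7A1 was DGKE (0.927), that most like SLC38A1 was FJX1 (0.944), and RGL2 came first for both SLC1A4 (0.912) and SLC38A2 (0.876). For SLC1A5 it was C1orf216 (0.876) and for SLC43A1 FBXW5 (0.884). The dim SLC6A9 reached 0.661 with IGF2BP1.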

How the data were processed

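Expression was measured in TK6 cells on 120 Affymetrix HG-U133 Plus 2.0 arrays, in 40 groups of 3. The deposited values are log2 signals of 54675 probe sets, which the authors made with RMA, a step named in the submitters' processing notes; the small number of arrays limits their precision. Of the probe sets, 41091 carry 1 gene symbol, 1801 several and 11721 none. Each of 19775 genes was read from its probe set with the highest mean over all arrays, and 14023 with at least 3 arrays at or above 6.183 were tested. limma 3.58.1 (R 4.3.3) was fitted to each set's 24 arrays as 8 group means, with Benjamini-Hochberg adjustment within each of 58 comparisons. The same code was tested on simulated data. Titles call the replicate numbers experiments, and deviations of same-numbered arrays correlated positively in 29 of 30 comparisons (median r 0.285, every pair over 0.1 in 19). The main fit, its SE and its p leave this pairing out, and only the run with a block for the experiment took it in. Alternatives were a block for the experiment, testing dim genes too, averaging a gene's probe sets, repeating quantile normalization, fitting all arrays at once, and dropping each experiment or 1 untreated FA array. Named genes were all members, the 3 genes most like each of them (of which the first is given), and from each list at most the 2 called genes with the largest change per highest-dose comparison. The members and lists were chosen with earlier results of these data known. Levels of different genes were not compared.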

Additional observations from a re-analysis of the deposited data

Results flagged for a closer look

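The change against untreated cultures at the highest dose differed between 24 h and 4 h in 31 of 45 pairs of member and chemical. These calls are by limma's test of the difference itself (adjusted p under 0.05). Values are the log2 change at 24 h minus that at 4 h. They hold the change of the untreated arrays with time too, which for SLC7A11 was -1.08 averaged over the sets. Of all tested genes, 53.3% were called with FA, 45.2% with MMS, 38.3% with EMS, 22.5% with COL and 22.4% with VCR. For 200 µM FA the difference was 1.58 for SLC7A11, 0.23 for SLC7A5, 0.58 for SLC3A2, 0.35 for SLC1A4, 0.52 for SLC1A5, 0.37 for SLC38A1 and 0.84 for SLC38A2. For 320 µM MMS the difference was -0.81 for SLC7A11, -1.60 for SLC7A5, 1.10 for SLC3A2, -0.64 for SLC7A1, 0.23 for SLC1A4, -1.004 for SLC1A5, -0.67 for SLC38A1 and 0.35 for SLC43A1. For 4 mM EMS the difference was 0.30 for SLC7A11, -0.78 for SLC7A5, 0.82 for SLC3A2, -0.36 for SLC7A1, 0.42 for SLC1A4, -0.42 for SLC1A5, -0.30 for SLC38A1 and 0.30 for SLC38A2. For the highest COL dose the difference was 0.92 for SLC7A11, -0.27 for SLC7A1, -0.25 for SLC1A4 and -0.30 for SLC38A2. For the highest VCR dose the difference was 1.01 for SLC7A11, -0.39 for SLC1A4, -0.59 for SLC38A2 and -0.39 for SLC43A1. SLC7A11 and SLC1A4 are listed under all 5 chemicals, but not every call held. The SLC1A4 call with MMS (adjusted p = 0.0407) was lost without any 1 experiment, with dim genes included and with quantile normalization repeated. It was also lost with the mean of probe sets, where its sign changed. SLC1A4 with COL was lost without experiment 2 (adjusted p = 0.0894). Other calls were lost too. SLC43A1 was lost with MMS without experiment 1 or 3, and with VCR without experiment 2 or 3. With the mean of probe sets, SLC7A11 with EMS, SLC7A1 with COL and SLC38A1 with FA were lost, the first also without experiment 2. SLC7A5 with FA was lost without experiment 1 or 3 and without the untreated array that stood apart. Each change rests on 3 treated and 3 untreated arrays at either time, and no cause was tested.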

How the results depend on the processing

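Of 126 called pairs of member and dose, 81 kept their call and direction under every alternative. Leaving out an experiment, which leaves 2 arrays in each group, moved counts of called pairs to between 11 and 12 for COL at 24 h (17 with all arrays), 0 and 1 for COL at 4 h (1), 4 and 5 for EMS at 4 h (8), 32 and 40 for highest against lowest dose (49), and 0 for VCR at 4 h and COL against VCR (1 each). VCR at 4 h gave 2 with all arrays in one fit, and COL against VCR gave 3 with the replicate number as a block and 3 with quantile normalization repeated. The mean of probe sets changed the sign of SLC1A4 at 4 h of 200 µM FA (-0.018, against 0.23) and of its 24 h minus 4 h difference with MMS (-0.0919, against 0.23); the cause was not tested. Over the 270 dose values, calls were lost and gained in 0 and 7 with the replicate block, 10 and 0 without the filter on dim genes, 13 and 2 with the mean of probe sets, 3 and 7 with quantile normalization and 4 and 12 in one fit. The block changed no call beyond those given beside the results. The median change over all tested genes stayed between -0.05 and 0.09 under quantile normalization.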
